A study of Mus musculus with 2 samples.

Results

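The 7 genes treated here are best known from microglia, the resident macrophages of the brain, and were followed through the leukocytes of the mouse adrenal gland: Tmem119, P2ry12, Gpr34, Fcrls, Olfml3, Sparc and Sall1. They were taken by name, 7 of 32285 annotated genes, whether or not they were detected. Single-cell RNA sequencing (scRNA-seq) had been done on living (DAPI-negative) leukocytes, sorted as CD45+, from adrenal glands of C57BL/6 J mice aged 7 weeks, with 1 library from females and 1 from males. No treatment or altered allele is named for either sex, and how many mice were pooled is not given. With 1 library per sex there is no measure of how mice vary, so no test was run and no p-value is given. Each level is a sum of unique molecular identifiers (UMIs, each standing for 1 captured RNA molecule), scaled to counts per 1000000 UMIs of the same cells (CPM). Its exact 95% Poisson interval follows it in parentheses and covers counting error only, as do the exact intervals of shares and ratios.

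Microglia arise from yolk sac precursors and are kept in their specialised state by the brain tissue, in which transforming growth factor β (TGF-β) has a central part. The genes that set them apart from other macrophages code for a surface protein of unsettled function (Tmem119), G protein-coupled receptors (P2ry12, which senses ADP and guides microglial processes, and Gpr34, a receptor for lysophosphatidylserine), a secreted Fc receptor-like scavenger protein (Fcrls), secreted matrix proteins (Olfml3 and Sparc) and a transcription factor (Sall1). Several of these genes are also found in macrophages outside the brain, and Sparc is made abundantly by endothelial and stromal cells.

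The female library held 16218309 UMIs in 3963 barcodes and the male library 9512670 UMIs in 2685 barcodes, of which 3693 and 2450 cells were kept, and 2 barcodes occurred in both libraries. Cells were gated on canonical markers that included none of the 7 genes. Lyve1-high macrophages (80 female and 142 male cells) carried markers such as Lyve1, Folr2 and Cd163. Retnla-high cells (88 and 103) carried Retnla, Aldh1a2 and Fn1. The other adrenal gland macrophages (other AGMs, 721 and 665 cells) were divided by their MHC class II transcripts, the antigen-presentation genes Cd74, H2-Aa, H2-Ab1 and H2-Eb1. Cells with 9 or fewer of these UMIs among 1000 drawn UMIs were MHC class II low (171 female and 20 male cells) and the rest high (490 and 524), while 60 and 121 cells with under 1000 UMIs were too shallow to be placed. Monocytes (219 and 136) and lymphocytes (B, T and NK cells together, 1901 and 933) served as the comparison.

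The 10 macrophage markers, among them C1qa, Mertk and Csf1r, summed to between 15805 and 19531 CPM in the Lyve1-high, MHC class II low and MHC class II high gates of both libraries. In the Retnla-high gate they reached 4178 CPM in the female and 3687 CPM in the male library, with every marker detected, against 1607 CPM and 1611 CPM in the monocytes. Because their macrophage markers were this low, these cells are called Retnla-high cells below. Their summed dendritic cell markers were at 117 and 114 CPM, with Xcr1, Flt3 and Snx22 at 0 in both libraries. The Lyve1-high cells were shallower than the other AGMs, Retnla-high cells and monocytes, with a median of 2206 female and 1929.5 male UMIs per cell, and their median mitochondrial share was 5.38% and 6.10%, against 3.02% and 2.87% in the other AGMs.

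Tmem119 (ENSMUSG00000054675, chr5:113793729-113800516 of GRCm38, minus strand), the surface protein used to tell microglia from blood-derived macrophages, was read mainly in the other AGMs. Its level there was 131 CPM (118 to 144.5) in the female and 158 CPM (142 to 175) in the male library. In lymphocytes it was 0.979 CPM and 2.11 CPM, in monocytes 8.67 CPM and 2.17 CPM, and in Retnla-high cells 6.33 CPM and 6.72 CPM. Of the UMIs of endothelial cells, 6 of 131248 in the female and 4 of 113657 in the male library were Tmem119. The macrophage gates together held 92.5% of the Tmem119 UMIs in the female library and 93.9% in the male one. At full depth, 30.0% of the other AGMs in the female and 29.5% in the male library had a Tmem119 UMI (median 3709 and 2633 UMIs per cell), against 0.368% and 0.857% of lymphocytes (median 3684 and 3613 UMIs). With each cell drawn down to 1000 UMIs, these shares were 13.2% and 12.7% of other AGMs against 0.0535% and 0% of lymphocytes, where 0 of 910 male cells allows a share of up to 0.330%.

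The Lyve1-high gate was where the 2 libraries parted for Tmem119. The female cells held 16 UMIs, or 74.96 CPM (42.8 to 122), 75% of them in 5 cells. None of the 142 male Lyve1-high cells held a UMI, which allows a level of up to 8.92 CPM. On the ratio to the other AGMs, the female Lyve1-high cells stood at 0.573 (0.324 to 0.943) and the male ones were at least 17.7-fold lower, taking 3 UMIs as the floor of the gate. The female value depended on how the gate was drawn: it was 0.0342 when graph clusters took the place of the gates. It was 0.179 without the 5 cells that held most of the UMIs, a step that lowers a small gate by construction. The female-to-male ratio in this gate fell below the depth set for comparison (50 UMIs in 1 library), and an at least 8.40-fold higher female level is given as a description only.

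Olfml3 (ENSMUSG00000027848, chr3:103722222-103738001, minus strand) codes for a secreted olfactomedin-like glycoprotein of the extracellular matrix. It too was highest in the other AGMs. The other AGMs held 166 CPM (151.5 to 181) in the female and 163 CPM (146.5 to 180) in the male library, and a UMI was found in 38.6% and 32.5% of cells. Lymphocytes held 2.33 CPM and 2.38 CPM, with a UMI in 0.736% and 0.643% of cells. Monocytes were at 0 of 219 female cells, which allows up to 4.33 CPM, and at 8.70 CPM in the male library. The Lyve1-high cells stood between these groups, at 70.3 CPM (39.3 to 116) and 20.8 CPM (8.37 to 42.9), and the Retnla-high cells at 15.8 CPM (5.13 to 36.9) and 2.24 CPM (0.0567 to 12.5). Of the UMIs of endothelial cells, 1 of 131248 in the female and 5 of 113657 in the male library were Olfml3.

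The sequence before the Olfml3 gene is shown because its level set the macrophage gates apart and because its upstream window touches no annotated exon. It covers chr3:103738002-103738251 on the minus strand (RefSeq, GRCm38.p6), the 250 bases ahead of the annotated start, with capitals at each GGAA on either strand, the core of the sites bound by ETS family factors such as the myeloid regulator PU.1:
Olfml3: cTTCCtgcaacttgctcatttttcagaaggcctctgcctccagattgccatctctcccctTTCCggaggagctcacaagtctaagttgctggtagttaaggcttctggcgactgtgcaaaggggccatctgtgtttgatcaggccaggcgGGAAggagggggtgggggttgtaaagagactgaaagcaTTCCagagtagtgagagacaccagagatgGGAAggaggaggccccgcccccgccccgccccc
The Olfml3 window held 5 such matches and 57.6% G and C. A GGAA match is common, being present in 93.4% of 32851 upstream windows of this length. The longer GGAAGT (19.7% of windows) and the SMAD box CAGAC (42.2% of windows), both searched on either strand, were not among these letters. Windows were at hand for 5 of the 7 genes, and the P2ry12 window lies in an exon of its neighbour Med12l. Its letters held GGAA 4 times and GGAAGT and CAGAC once each, while the Fcrls window held 6, 1 and 2 matches.

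**Figure D1:**
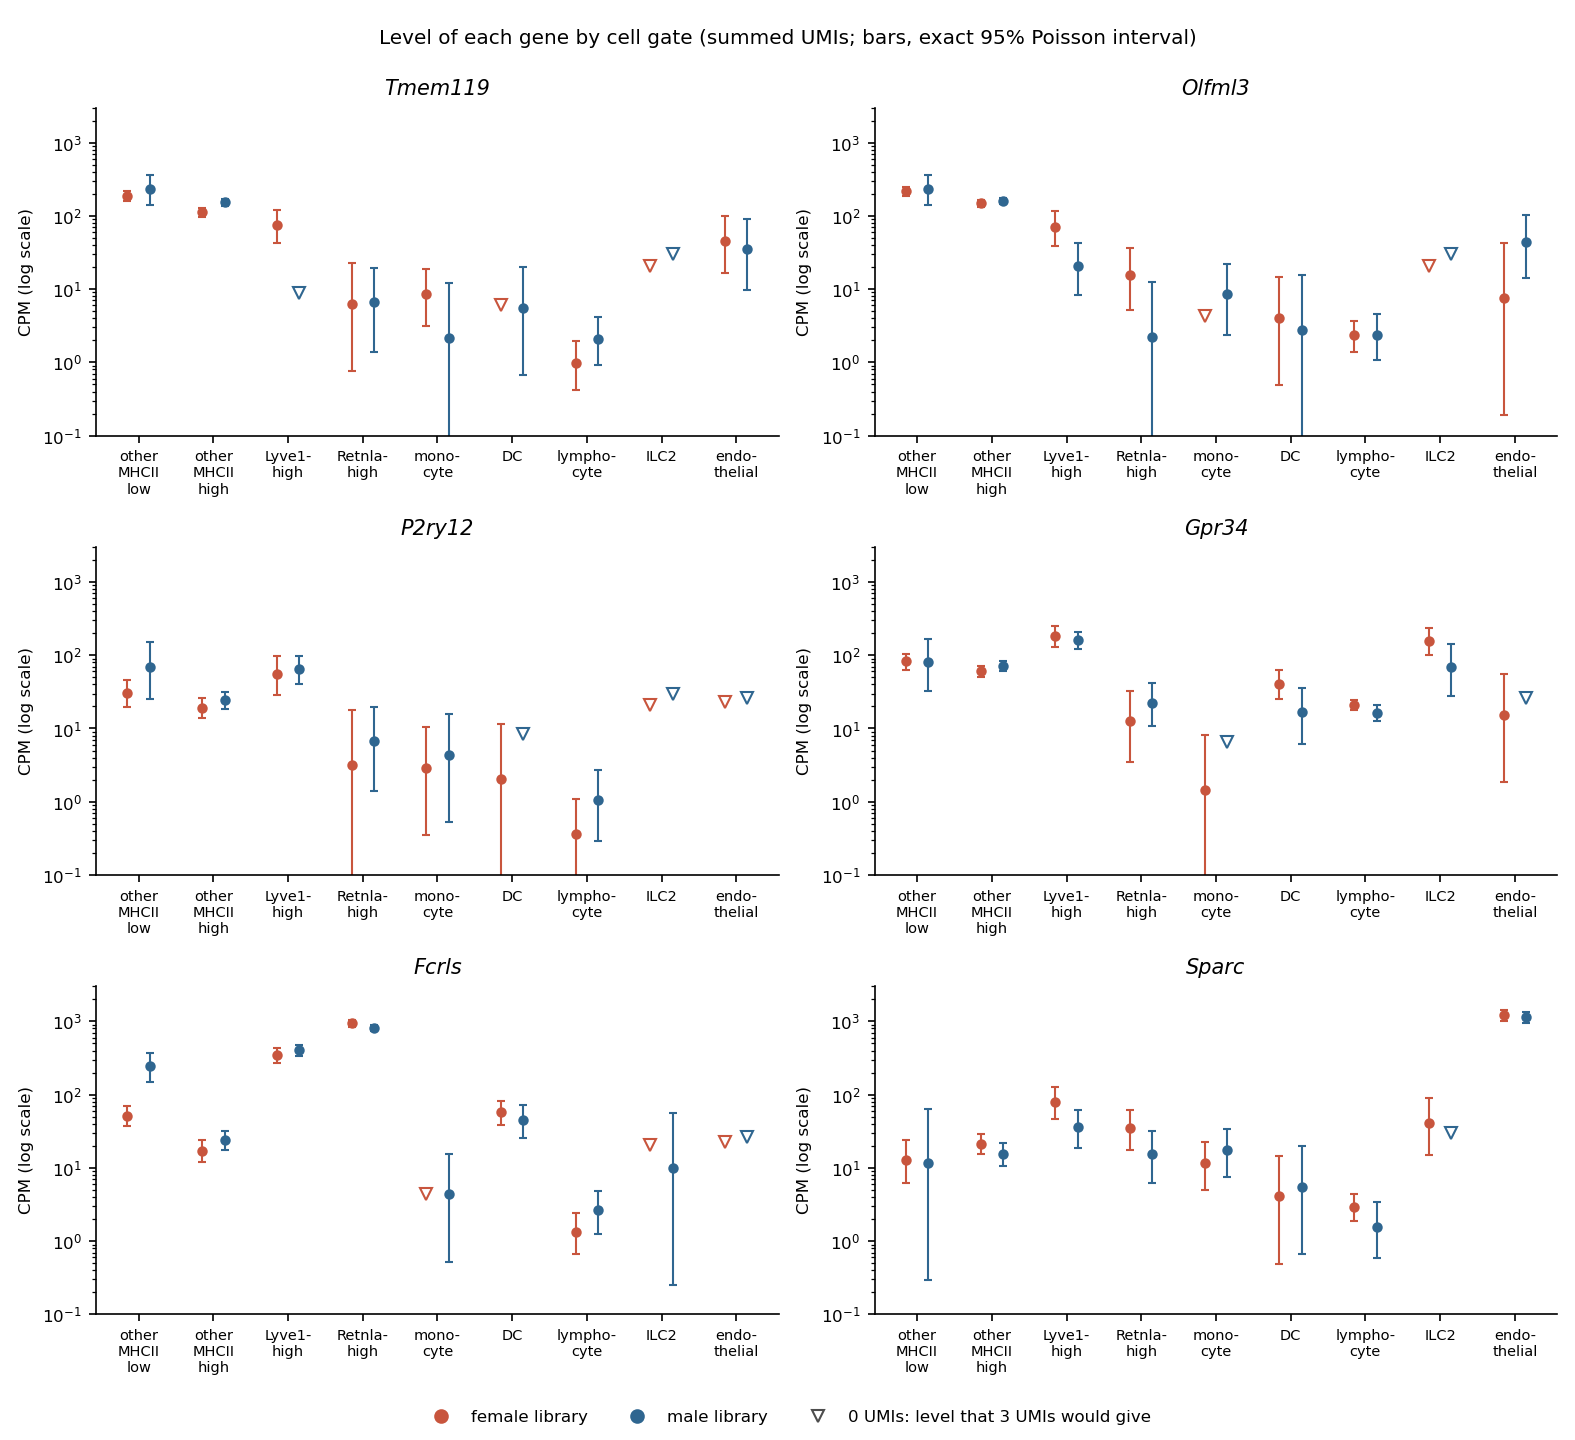
Level of each gene in CPM (log scale) in 9 gates of the female (red) and male (blue) library, with exact 95% Poisson intervals as bars and open triangles where no UMI was found. Tmem119 and Olfml3 stood highest in the gates of other AGMs, Fcrls in the Retnla-high cells (942 and 816 CPM) and Sparc in the endothelial cells (1204 and 1135 CPM).

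P2ry12 (ENSMUSG00000036353, chr3:59216272-59262871, minus strand), the purinergic receptor, was sparse everywhere. The female Lyve1-high macrophages held 56.2 CPM (29.05 to 98.2), from 12 UMIs in 12 of 80 cells. The male Lyve1-high cells held 65.4 CPM (41.0 to 99.1), from 22 UMIs in 20 of 142 cells. The other AGMs were at 22.9 CPM (17.8 to 29.1) and 26.4 CPM (20.2 to 34.0), and lymphocytes at 0.367 CPM and 1.06 CPM. The male MHC class II low cells reached 69.2 CPM (25.4 to 150.5) on 6 UMIs. Few cells carried the UMIs: 8.32% of female and 7.82% of male other AGMs, against 0.158% and 0.429% of lymphocytes. The Retnla-high cells held 1 UMI in the female and 3 UMIs, all in 1 cell, in the male library. P2ry12 lies inside Med12l on the opposite strand, with exons that overlap. The sources used here do not state whether the counting used strand. Whether reads of either gene entered the count of the other was not tested. Med12l itself was counted at 4.69 CPM and 2.97 CPM in Lyve1-high and at 13.5 CPM and 5.20 CPM in other AGMs.

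Gpr34 (ENSMUSG00000040229, chrX:13632089-13640858, plus strand) stood highest in the Lyve1-high macrophages. The level there was 183 CPM (130 to 250) in the female and 161 CPM (121 to 210) in the male library, against 65.7 CPM (56.8 to 75.6) and 71.5 CPM (61.0 to 83.3) in the other AGMs. At 1000 UMIs per cell it was found in 17.4% and 13.3% of Lyve1-high cells and in 6.35% and 5.70% of other AGMs. Its 5 richest cells held 51.3% of the female and 33.3% of the male Lyve1-high UMIs.

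Gpr34 was the one member with a sizeable presence among lymphoid cells. Lymphocytes held 21.1 CPM (18.0 to 24.4) and 16.4 CPM (12.5 to 20.98), or 33.4% of all female and 18.3% of all male Gpr34 UMIs. NK cells carried 28.7 CPM and 22.9 CPM, T cells 21.7 CPM and 15.7 CPM, and B cells 4.23 CPM and 3.01 CPM, so the intervals of NK and T cells overlapped and those of B and NK cells did not. In group 2 innate lymphoid cells (ILC2, 50 and 34 cells), marked by Il1rl1 and Gata3, Gpr34 reached 158 CPM (100 to 237) and 69.5 CPM (27.9 to 143). A UMI was found in 32.0% and 20.6% of the ILC2, while Tmem119, P2ry12 and Olfml3 had none in either library. Monocytes held 1 UMI in 219 female and none in 136 male cells, and the 47 female and 50 male neutrophils held none. Dendritic cells did hold Gpr34, with 20 UMIs in 93 female and 6 UMIs in 66 male cells. Those with at most 1 Retnla-high marker measured 47.0 CPM (27.4 to 75.2) in the female and 21.8 CPM (8.01 to 47.5) in the male library. Gpr34 lies in an intron of Cask on the opposite strand, with no exon overlap, and Cask was counted at 1.22 CPM and 2.11 CPM in lymphocytes and 32.8 CPM and 41.6 CPM in Lyve1-high macrophages.

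Fcrls (ENSMUSG00000015852, chr3:87250758-87263738, minus strand) had a pattern of its own. Its UMIs lay mostly in the Retnla-high cells, which held 56.4% of them in the female and 54.2% in the male library. The level was 942 CPM (839 to 1056) and 816 CPM (734 to 904), with a UMI in 81.8% and 80.6% of cells. Lyve1-high macrophages came next at 342 CPM (268 to 430) and 402 CPM (337 to 475), with a UMI in 38.8% and 52.1% of cells. The other AGMs were far lower, at 27.3 CPM (21.7 to 33.9) and 35.1 CPM (27.9 to 43.6). Lymphocytes held 1.35 CPM and 2.64 CPM, with a UMI in 0.579% and 1.07% of cells, and monocytes no UMI in the female and 2 UMIs in the male library.

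The markers that define the Retnla-high gate summed to 27054 and 31839 CPM in it, a height that the gating itself fixes. In the Lyve1-high gate they summed to 5660 and 6353 CPM. Among Lyve1-high cells with at most 1 Retnla-high marker detected, Fcrls measured 260 CPM (193 to 344) in 72 female cells and 384 CPM (318 to 461) in 129 male cells. With 2 or more markers it measured 953 CPM (611 to 1419) in 8 female and 564 CPM (334 to 892) in 13 male cells. Of those UMIs 1 cell held 41.7% and 44.4%. Dendritic cells held 57.1 CPM and 44.4 CPM of Fcrls, and those with at most 1 Retnla-high marker 38.7 CPM (21.1 to 64.9) and 25.5 CPM (10.2 to 52.5).

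Sparc (ENSMUSG00000018593, chr11:55394500-55423183, minus strand), a secreted collagen-binding glycoprotein, was mainly an endothelial transcript in these libraries. The few endothelial cells in the sorted fraction (42 and 45) held 1204 CPM (1023 to 1407) and 1135 CPM (948 to 1349), or 47.2% and 39.7% of its UMIs. The macrophage gates held 25.1% and 17.5%, and the ungated cells 9.55% and 22.8%. Levels were 79.7 CPM (46.4 to 127.5) and 35.7 CPM (18.4 to 62.4) in Lyve1-high macrophages, 34.8 CPM and 15.7 CPM in Retnla-high cells, and 18.9 CPM (14.3 to 24.5) and 16.5 CPM (11.7 to 22.6) in the other AGMs. Monocytes, at 11.6 CPM (4.99 to 22.8) and 17.4 CPM (7.51 to 34.3), did not differ from the other AGMs beyond counting error.

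Endothelial markers such as Kdr, Cdh5 and Emcn, 8 in all, summed to between 36.1 and 117 CPM in the macrophage gates of either library, and Sparc was higher beside them in all but the male Retnla-high cells. MHC class II high cells with at least 1 endothelial UMI held 50.5 CPM of Sparc in the female and 49.4 CPM in the male library. Those without held 16.8 CPM and 9.82 CPM. The male Lyve1-high cells went from 149 CPM with such a UMI to 17.3 CPM without, and the female ones from 124 CPM to 76.0 CPM. Tmem119, measured the same way in MHC class II high cells, showed no such rise (97.6 CPM with and 114 CPM without in the female library, 135 CPM and 157 CPM in the male one). What part endothelial RNA had in the Sparc levels was not tested.

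**Figure D2:**
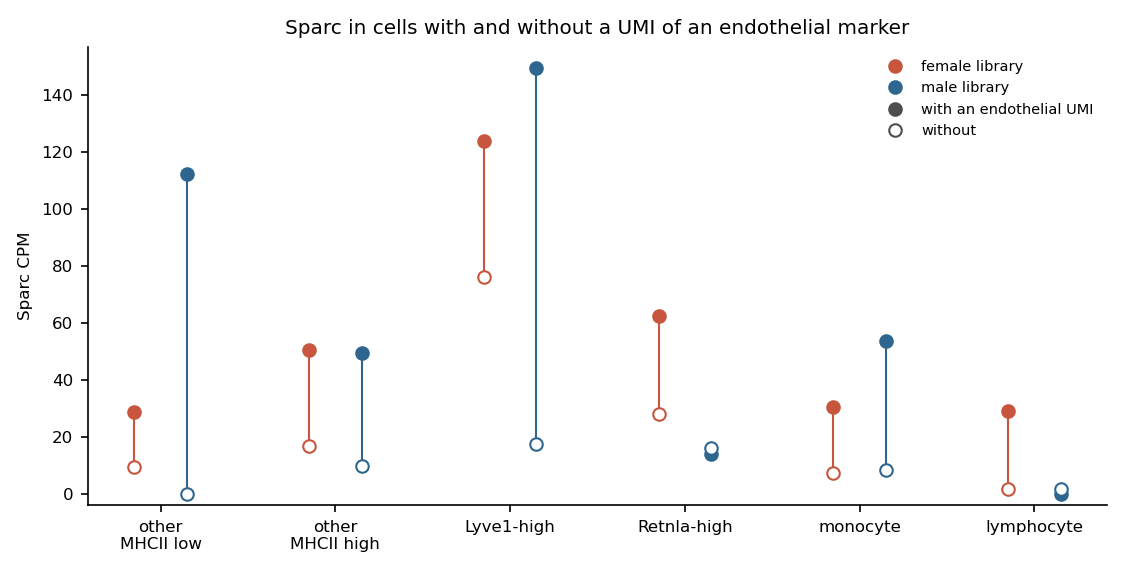
Sparc level in CPM in cells with (filled) and without (open) a UMI of any of 8 endothelial markers, by gate and library, drawn without intervals. In all but the male Retnla-high cells and male lymphocytes the filled point was the higher of the pair.

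Sall1 (ENSMUSG00000031665, chr8:89027235-89044162, minus strand), the transcription factor that marks microglia and a few other tissue cells, was not detected. Not 1 UMI was counted in any of the 3963 female or 2685 male barcodes, kept or discarded. This allows a share of up to 0.0757% of female and 0.112% of male barcodes with a UMI, and a level of up to 0.185 CPM and 0.315 CPM over the whole libraries.

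To set the gates against each other, a gene was compared where 1 of the groups held at least 50 of its UMIs, and a ratio past 2-fold was counted. Against lymphocytes, 6 of the 6 members compared in the female library were higher in the other AGMs, where 14.6% of 9262 genes were higher and 16.5% lower by as much. In the male library it was 5 of 5, against 15.7% of 7628 genes higher and 16.2% lower. Apart from Gpr34, these members reached 50 UMIs only in the other AGMs, so they entered through the gate where they are high, and the counts are a description only. Tmem119 led with ratios of 134 (67.1 to 312) and 74.7 (37.5 to 174), followed by Olfml3 at 71.3 (45.2 to 119.5) and 68.4 (35.7 to 151), and P2ry12 at 62.4 (20.5 to 310) and 25.04 (9.30 to 94.8), whose intervals all overlapped. Fcrls stood at 20.3 (10.7 to 42.2) and 13.3 (6.88 to 28.8), and Gpr34, with its lymphoid share, at 3.12 (2.53 to 3.86) and 4.37 (3.24 to 5.95). With 10 CPM added to each level, the median ratio over the compared members was 1.69 and 1.84 on the log2 scale, and that over all genes compared -0.11 and -0.12.

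Against monocytes, the circulating precursors of many tissue macrophages, 5 of 6 female and 5 of 5 male members were higher in the other AGMs, where 15.5% and 15.8% of all genes were, and 0 members were lower (7.73% and 8.29% of all genes). No member reached 50 UMIs in monocytes, so all entered through the other AGMs, and these counts too are a description only. Gpr34 was 45.5-fold (8.07 to 1806) higher in the female library, against 1 monocyte UMI, and stood at least 11.0-fold above the male monocytes. Olfml3 stood at least 38.3-fold above the female and 18.7-fold (7.24 to 68.96) above the male monocytes. Tmem119 ratios were 15.1 (6.87 to 41.4) and 72.6 (12.9 to 2874). Sparc was the exception at 1.63 (0.775 to 3.97) in the female library. Its male ratio of 0.947 (0.435 to 2.35) rested on under 50 UMIs in each gate and was not among the 5 compared.

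The Lyve1-high macrophages differed from the other AGMs in both directions. In the female library 4 of 6 members were higher (9.78% of all genes) and 1 was lower (9.87%). In the male library 3 of 5 were higher (9.97%) and 2 lower (11.8%). The lower members reached 50 UMIs only in the other AGMs, where they are high, so the lower counts are a description only. Fcrls led at 12.5 (9.001 to 17.4) and 11.4 (8.62 to 15.3), and Gpr34 stood at 2.78 (1.92 to 3.94) and 2.25 (1.62 to 3.07). P2ry12 was 2.45 (1.21 to 4.57) and 2.47 (1.45 to 4.09) times the level of the other AGMs. The fourth higher member of the female library was Sparc, at 4.22 (2.30 to 7.37), whose levels beside endothelial UMIs are given above. Olfml3 went the other way, at 0.424 (0.235 to 0.706) and 0.128 (0.0511 to 0.267).

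These Lyve1-high ratios rest on few UMIs. Without the 5 richest cells of each gene, Gpr34 measured 1.62 and 1.82 and P2ry12 1.86 and 2.16, so that of the female members with 50 UMIs left in 1 group only Fcrls, at 11.1, was higher by over 2-fold. Tmem119, at 0.179, and Olfml3, at 0.198, were then lower by over 2-fold. Leaving out 5 of 80 female Lyve1-high cells and 5 of 721 other AGMs lowers a ratio by construction, so these falls are no measure of a lower level. Sparc measured 2.63 on fewer UMIs. With graph clusters in place of gates the female Gpr34 ratio was 1.33 and the Olfml3 ratios were 0.0519 and 0.0703. With a mitochondrial ceiling of 5% in place of 15%, which left 37 and 58 Lyve1-high cells, Fcrls stood at 16.2 and 11.5 and Gpr34 at 3.56 and 2.29. With that ceiling no female member was counted as lower.

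In Retnla-high cells Fcrls was 34.5-fold (26.9 to 44.7) higher than in the other AGMs of the female library and 23.2-fold (18.2 to 29.9) higher in the male library, the 1 member called higher in each (8.96% and 8.46% of all genes). The remaining microglia-linked genes apart from Sparc and Sall1 were lower, 4 of 6 and 4 of 5 (16.5% and 16.8% of all genes). These members reached 50 UMIs only in the other AGMs, where they are high, so the lower counts are a description only. Tmem119 stood at 0.0484 (0.00584 to 0.176) and 0.0426 (0.00875 to 0.126), and Olfml3 at 0.0953 (0.0308 to 0.224) and 0.0138 (0.000348 to 0.0773). P2ry12 stood at 0.138 (0.00344 to 0.795) and 0.254 (0.0510 to 0.779), and Gpr34 at 0.192 (0.0519 to 0.501) and 0.313 (0.148 to 0.591). Summed macrophage markers were also lower in these cells, as given above, and their part in these ratios was not tested.

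**Figure D3:**
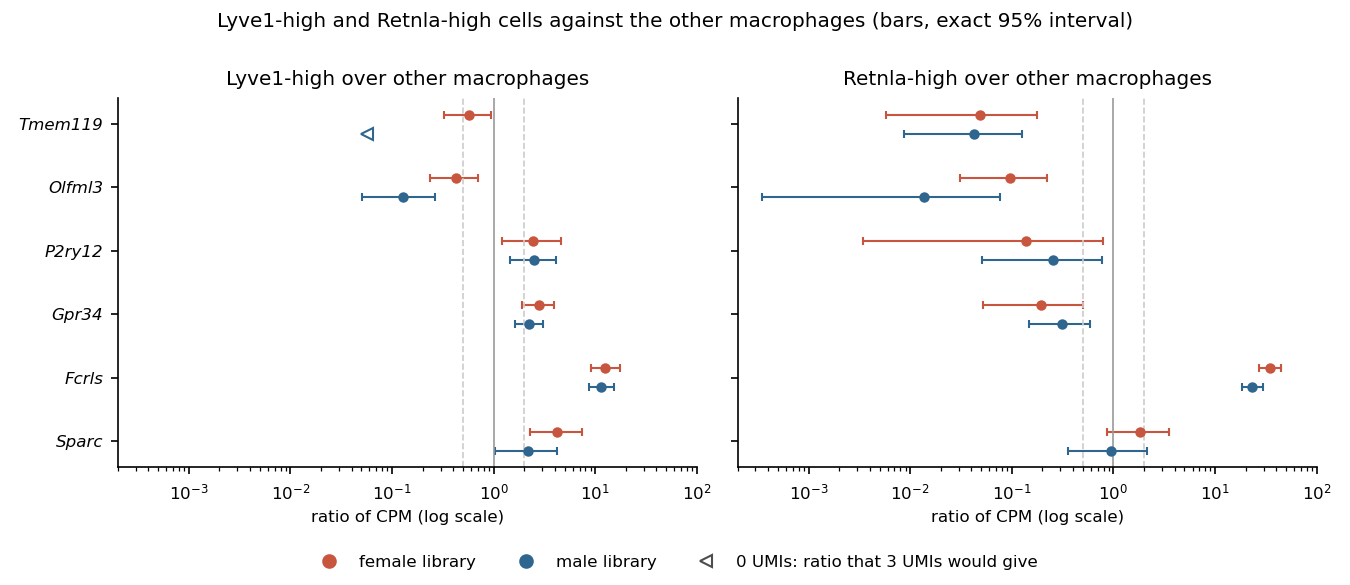
Ratio of CPM (log scale) of each gene in Lyve1-high (left) and Retnla-high (right) cells over the other AGMs, with exact 95% intervals; the solid line marks 1 and the dashed lines 2-fold. Fcrls lies right of the line in both panels, Olfml3 left of it in both, and Gpr34 and P2ry12 change sides.

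The study's division of AGMs by MHC class II asked for the same genes across that boundary. In the female library, with 171 low and 490 high cells, Tmem119 measured 188 CPM (159 to 221) in low and 111 CPM (97.6 to 126) in high cells, a ratio of 1.69 (1.37 to 2.08). Olfml3 measured 215 CPM (184 to 250) and 148 CPM (132 to 165), a ratio of 1.46 (1.2004 to 1.76), and Gpr34 82.4 CPM (63.5 to 105) and 60.1 CPM (50.2 to 71.4), a ratio of 1.37 (1.0003 to 1.87). All 3 lay above 1, and 0 of the 3 members compared passed 2-fold, where 1.13% of 4977 genes were higher and 1.57% lower by as much. At 1000 UMIs per cell, Tmem119 was found in 18.7% of low and 11.2% of high cells and Olfml3 in 21.1% and 12.7%.

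Fcrls and P2ry12 held fewer than 50 UMIs in each female gate. Fcrls was at 51.5 CPM (36.8 to 70.1) in low and 17.2 CPM (12.1 to 23.7) in high cells, and P2ry12 at 30.9 CPM (19.8 to 46.0) and 19.1 CPM (13.7 to 25.9). Low cells with at most 1 marker of either subset, 139 of the 171, held 37.3 CPM (23.6 to 55.9) of Fcrls, and 52.2% of those UMIs came from 1 cell.

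The male library had 20 MHC class II low cells, which sets wide intervals. Tmem119 stood at 231 CPM (141 to 356) in low and 154 CPM (137 to 171) in high cells, and Olfml3 at 231 CPM (141 to 356) and 160 CPM (143 to 177.5), so that both intervals overlapped. Past 2-fold were 2 of 5 members, where 7.94% of 5078 genes were higher (and 15.7% lower, with 0 members): Fcrls at 10.1 (5.80 to 17.2) and P2ry12 at 2.84 (0.997 to 6.61). Without the 5 richest cells of each group the Fcrls ratio was 2.45. Leaving out 5 of 20 low and 5 of 524 high cells lowers the ratio by construction. For P2ry12 this setting cannot decide anything, since only 4 low cells held a UMI of it. The 5 richest low cells held 85.7% of the Fcrls UMIs. The Retnla-high markers summed to 3009 CPM in the male low cells, against 248.5 CPM in the male high cells and 485.5 CPM in the female low cells. In the cells with at most 1 marker of either subset, Fcrls stood at 212 CPM (106 to 379) in 14 male low cells and at 20.2 CPM (14.4 to 27.6) in 479 male high cells, a ratio of 10.48 on 11 and 39 UMIs.

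Levels were also read in finer steps of MHC class II. From 0 to 9 up to 70 or more MHC class II UMIs per 1000, female Tmem119 measured 188, 143, 106, 95.1 and 89.0 CPM in order. Male Tmem119 measured 231, 147, 168, 130 and 163 CPM and had no such order. Olfml3 was lower in every step above the lowest, going from 215 CPM to between 124 and 169 CPM in the female library and from 231 CPM to between 118 and 173 CPM in the male one. Fcrls was lower at each male step, from 242 CPM to 65.2, 30.3, 19.5 and 9.12 CPM, while in females it stayed between 15.6 and 19.1 CPM above the lowest step. Gpr34 had no order along the steps, at 82.4, 36.5, 68.9, 60.5 and 89.0 CPM in the female and 80.7, 57.1, 64.2, 87.0 and 70.3 CPM in the male library. Steps held between 20 and 171 cells, and 22 female and 5 male cells lay within 2 UMIs of the boundary.

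**Figure D4:**
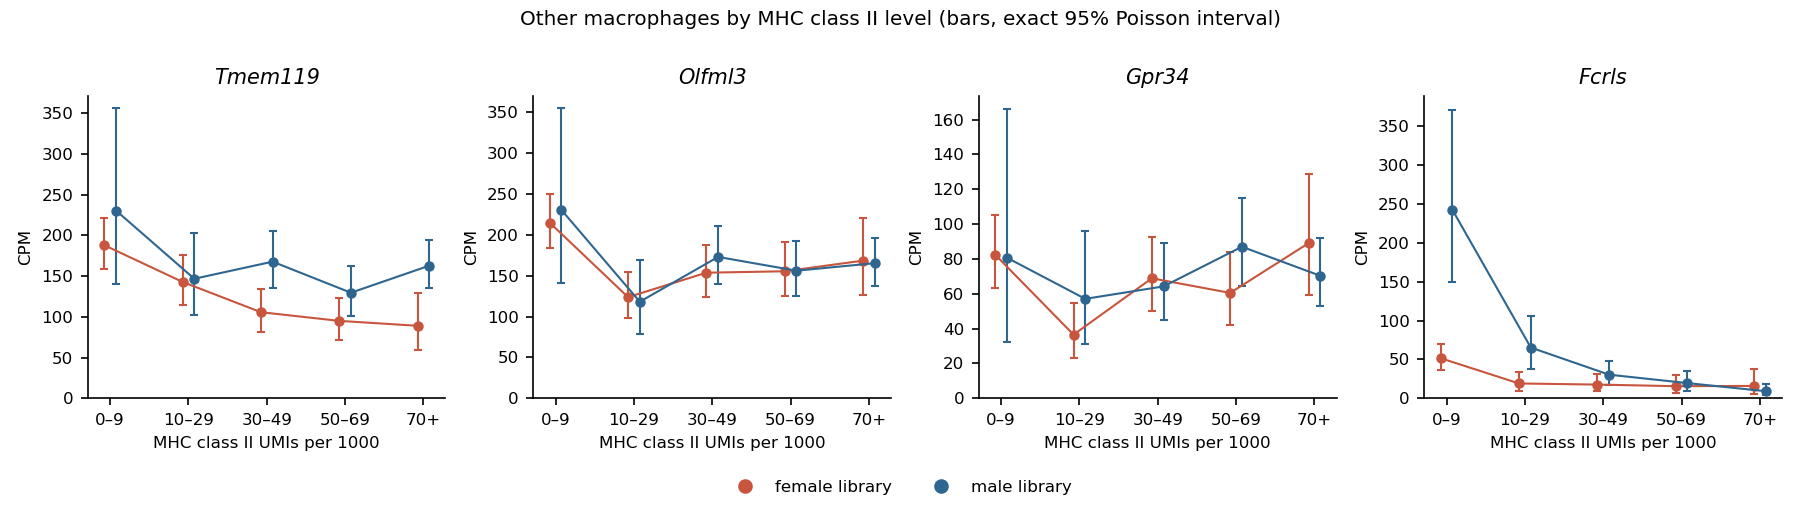
Level in CPM of 4 genes in other AGMs by MHC class II UMIs per 1000 drawn UMIs, with exact 95% Poisson intervals, for the female (red) and male (blue) library. Fcrls was highest in the lowest step of both libraries, and Tmem119 went from 188 to 89.0 CPM across the female steps.

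Within the other AGMs, members were seen in the same cells at modest rates. Of the 661 female and 544 male cells with 1000 UMIs or more, 34.2% and 38.6% held no UMI of Tmem119, P2ry12, Gpr34 or Olfml3, and 0.756% and 1.29% held all 4. In Retnla-high cells of that depth 92.7% and 90.9% held none. At 1000 UMIs per cell, Olfml3 was found in 21.8% of female cells with Tmem119 and 13.8% of those without, a difference of 8.08 points (0.0791 to 18.2). In the male library the shares were 20.3% and 14.7%, with an interval of the difference that included 0 (5.55 points, -2.98 to 16.9). Within MHC class II high or low cells the female intervals included 0 too, at 8.28 points (-0.817 to 20.9) and 4.86 points (-9.04 to 22.9).

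Fcrls was also set beside Tmem119 and Olfml3 cell by cell within the other AGMs, with MHC class II low and high cells pooled. Of the 17 female and 16 male cells with an Fcrls UMI after the draw, 35.3% and 37.5% also held Tmem119, against 12.6% and 11.9% of cells without Fcrls. The differences were 22.7 points (4.52 to 46.2) and 25.6 points (6.31 to 49.6). Olfml3 was found in 35.3% and 50% of the cells with Fcrls, against 14.3% and 14.4% without. These shares rest on between 6 and 8 cells with both genes, and the cells came from 1 library each. In the MHC class II high cells alone, 1 female and 2 male cells held both Fcrls and Tmem119, and the differences were 5.51 points (-8.50 to 45.3) and 8.13 points (-6.53 to 39.2), with intervals that span 0. For Fcrls and Olfml3 in the same cells the differences were 37.8 points (6.41 to 69.2) and 26.0 points (2.58 to 54.9), on 3 and 4 cells with both, and these intervals did not span 0. In the MHC class II low cells the intervals spanned 0 for Fcrls and Olfml3 and not for Fcrls and Tmem119. Fcrls and Tmem119 differed by 28.6 points (3.52 to 55.6) and 52.4 points (7.63 to 78.2), on 5 and 4 cells with both. Fcrls and Olfml3 differed by 6.65 points (-12.2 to 36.5) and 38.1 points (-6.90 to 67.1), on 3 and 4 cells. Whether low and high cells differ in this was not tested.

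**Figure D5:**
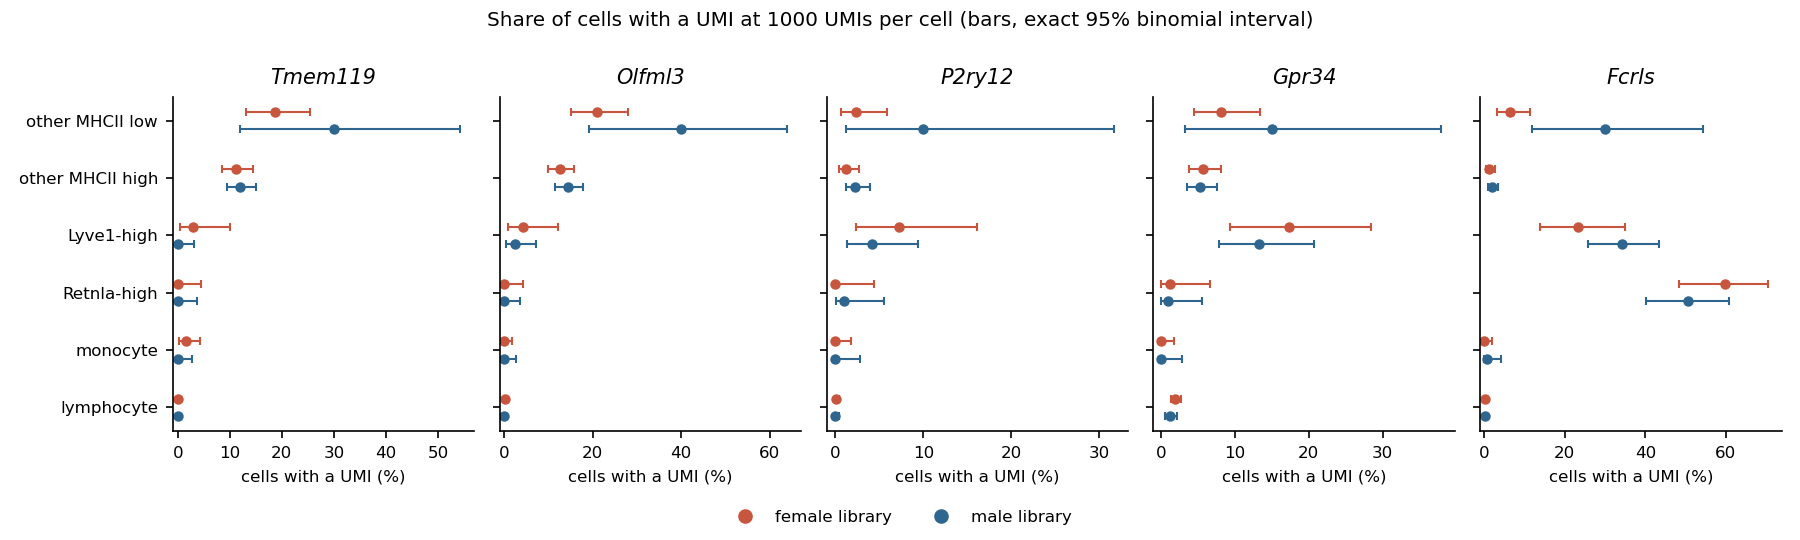
Share of cells (%) with a UMI of each gene after every cell was drawn down to 1000 UMIs, by gate and library, with exact 95% binomial intervals. The Retnla-high cells had an Fcrls UMI at a rate of 59.8% (female) and 50.5% (male), and a Tmem119 UMI in 0% of cells.

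Between the sexes, 0 of the 6 members compared passed 2-fold in the other AGMs, where 0.927% of 6257 genes were higher and 0.607% lower in the female library. The female-to-male ratio was 0.829 (0.717 to 0.959) for Tmem119, 1.02 (0.890 to 1.17) for Olfml3, 0.919 (0.743 to 1.14) for Gpr34, 0.867 (0.605 to 1.25) for P2ry12, 0.778 (0.564 to 1.07) for Fcrls and 1.15 (0.746 to 1.78) for Sparc. Tmem119 was the 1 member whose interval excluded 1, and within MHC class II high cells alone its ratio was 0.725 (0.611 to 0.859), with 0 of 5 members past 2-fold (0.543% of genes higher, 0.505% lower). In the MHC class II low cells it was 0.816 (0.509 to 1.37), with 0 of 3 members past 2-fold (9.18% of genes higher, 3.64% lower).

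In the Lyve1-high macrophages, Gpr34 (1.14, 0.734 to 1.75) and Fcrls (0.852, 0.632 to 1.14) were deep enough to compare between the sexes and neither passed 2-fold (1.44% of genes higher, 2.12% lower). Olfml3 was higher in the female Lyve1-high gate at a ratio of 3.38 (1.29 to 9.79), but its 15 and 7 UMIs are under the 50 asked for a comparison. With graph clusters in place of gates that ratio was 0.761, so the female excess was not seen. Within the MHC class II low Lyve1-high cells, 20 female cells held 149 CPM (74.5 to 267) of Tmem119 and 136 CPM (65.1 to 249.5) of Olfml3, and 32 male cells held no UMI of either gene. In the MHC class II high ones, 49 female and 88 male cells, Olfml3 stood at 37.9 CPM (12.3 to 88.5) and 28.8 CPM (11.6 to 59.3), with overlapping intervals. Tmem119 stood at 37.9 CPM (12.3 to 88.5) in these female cells, from 5 UMIs in 2 cells, and the male ones held none. In Retnla-high cells the Fcrls ratio was 1.16 (0.988 to 1.35), with 0 of 1 member past 2-fold (0.0741% of genes higher, 0.445% lower).

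A wider list of 28 microglia-linked genes was read beside the 7. Against lymphocytes, 15 of the 20 compared in the female library and 17 of the 19 in the male library were higher in the other AGMs, where 14.6% and 15.7% of all genes were, and 15 were higher in both, among them the fractalkine receptor Cx3cr1 and the lipid receptor Trem2. Cx3cr1 measured 850 and 920 CPM in other AGMs against 18.5 and 22.2 CPM in lymphocytes. Trem2 measured 353 and 245 CPM against 1.71 and 1.58 CPM. The median over the compared genes of the list, with 10 CPM added to each level, was 2.51 and 2.45 on the log2 scale. The same filter on UMIs chose the genes compared, so these counts are a description too. Lower by 2-fold were Lag3 in the female library, which had under 50 UMIs in the male one and was not compared there, and Selplg and Golm1 in the male library (16.5% and 16.2% of all genes).

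In Retnla-high cells 13 of 19 female and 12 of 18 male genes of this list were lower than in the other AGMs, where 16.5% and 16.8% of all genes were, again a description only, since genes could enter through the other AGMs alone. Cx3cr1 stood at 0.0819 (0.0512 to 0.124) and 0.129 (0.0964 to 0.169). Pros1, which codes for the phagocytosis bridging ligand protein S, was the 1 gene of 19 and of 18 higher (8.96% and 8.46% of all genes), at 4.47 (2.99 to 6.58) and 3.45 (2.36 to 5.00). In Lyve1-high macrophages 2 of 19 and 3 of 18 genes of the list were higher, where 9.78% and 9.97% of all genes were, the female count being near that share, and 4 and 6 were lower (9.87% and 11.8%). Genes could enter these lower counts through the other AGMs alone too, so they are a description only. Ltc4s (7.75 and 23.8) and Pros1 (3.64 and 6.04) were higher in both libraries, and Tgfbr1 and Bhlhe41 were among those lower in both. Across MHC class II, 1 of 18 female genes (Ltc4s, at 3.03) and 3 of 17 male genes (Trem2, Entpd1 and Pros1) were higher in low cells, where 1.13% and 7.94% of all genes were, and 0 were lower (1.57% and 15.7%). Between the sexes 0 of 19 passed 2-fold in the other AGMs (0.927% of all genes higher, 0.607% lower).

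Of 14 genes of the TGF-β pathway, which maintains the microglial state, 6 of 10 compared were higher and 2 lower in the female other AGMs than in lymphocytes, and 4 of 10 higher and 2 lower in the male ones. Of all genes 14.6% and 15.7% were higher and 16.5% and 16.2% lower, so the lower count is near the background share. Higher in both were the ligand Tgfb1 (2.60 and 2.83), the receptors Tgfbr1 (20.6 and 19.9) and Tgfbr2 (2.13 and 2.18) and the ligand-anchoring protein Nrros (3.61 and 5.04). The signal transducer Smad3 stood at 0.411 and 0.370 and the inhibitory Smad7 at 0.106 and 0.156. In monocytes over lymphocytes, Tgfb1, Tgfbr1 and Nrros were higher in each library, 3 of 10 (13.5% and 13% of all genes). There 1 and 2 were lower (27% and 24%). In other AGMs over monocytes, 3 of 8 female and 2 of 8 male genes were higher (15.5% and 15.8%), Tgfbr1 and Tgfbr2 in both. There 0 and 1 were lower (7.73% and 8.29%). The same filter on UMIs chose the genes compared, so all these counts are a description only. Across MHC class II none of 8 female genes passed 2-fold, and 1 of 8 male genes, Ski, was lower in low cells (15.7% of all genes). Between the sexes 0 of 8 passed it in the other AGMs as a whole, and in their MHC class II low cells 1 of 6, Ski, was higher in the female library (9.18% of all genes).

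The genes most like each member were sought by the Pearson r of log2(CPM + 10) over 21 gate and library profiles among 4097 genes, a description over profiles that share libraries and depth. Tmem119 was closest to Zmynd15 (0.960), Col14a1 (0.951) and Olfml3 itself (0.947). Olfml3 was closest to Col14a1 (0.974), Zmynd15 (0.967) and Tmem86a (0.961). Fcrls was closest to Retnla (0.935), a marker of the gate, Pltp (0.920) and Pepd (0.915). Gpr34 had no gene as near, with Mdfic (0.827), Sept8 (0.805) and Fez2 (0.8002) leading, and P2ry12, Sparc and Sall1 had under 100 UMIs in the macrophage gates of at least 1 library and were left out.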

How the data were processed

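scRNA-seq was analysed from the deposited UMI counts per gene and barcode of 2 libraries. Per the labels and the study's methods, the authors demultiplexed, aligned and counted 10x Genomics 3′ v3.1 reads with Cell Ranger 4.0.0, and the submitters' processing notes name mm10. The annotation release and use of strand are not given in the sources used here. Low barcodes had been removed on the barcode rank curve, and the lowest in the files holds 500 UMIs. Here, barcodes with at least 200 genes and a mitochondrial share of at most 15% were kept. A ceiling of 1.2%, as the study's methods state it, left 333 female and 366 male barcodes and was tried as an alternative. The study kept far more cells than that, so the scale of its ceiling could not be settled. Doublets were scored with Scrublet in scanpy 1.11.5. Its automatic threshold marked 2 and 10 barcodes, so the top scores were removed at 0.8% per 1000 barcodes (126 and 58), leaving 3693 and 2450 cells.

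Each cell was scored on fixed marker lists without the 7 genes: the leading list needed at least 2 markers and a lead of 1.5-fold, Lyve1-high and Retnla-high cells needed at least 3 markers, and 410 female and 259 male cells stayed ungated. The MHC class II boundary of 9 UMIs per 1000 was an Otsu threshold. The members and lists were chosen with earlier results of these data known, and the scoring, subgroups and steps were set after the counts had been seen. All 7 members are named, and of the further lists those genes past 2-fold in the same direction in both libraries. List genes named for 1 library, or for the Lyve1-high and Retnla-high comparisons, were picked after their values were seen. Intervals are exact Poisson (CPM), Clopper-Pearson (shares), conditional binomial (ratios) and Newcombe (differences) at 95%, a count of 0 is limited by 3 counts, and list medians add 10 CPM. The scripts were tested on simulated data. Python 3.11.15, scipy 1.17.1 and pandas 2.3.3 were used. Gene positions come from GENCODE M21. Of the further lists, 1 gene is not reported here by name.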

Additional observations from a re-analysis of the deposited data

Results flagged for a closer look

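Gpr34 in Retnla-high cells lay on different sides of the lymphocyte level in the 2 libraries, at a ratio of 0.601 (0.162 to 1.57) in the female and 1.37 (0.626 to 2.69) in the male library. The difference between the libraries was not tested, and both intervals include 1.

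Cells that no gate took, 410 female and 259 male, entered no comparison of the report, yet for 5 of the 7 genes, with more than 3 UMIs, the counting interval there lay wholly above the lymphocyte interval in at least 1 library. Fcrls measured 21.3 CPM and 61.5 CPM there, and Gpr34 33.7 CPM and 35.5 CPM. Olfml3 measured 7.10 CPM and 13.6 CPM, and Tmem119 7.69 CPM in the female library. Sparc measured 18.9 CPM and 77.2 CPM, with 27 of the male UMIs in 1 cell.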

How the results depend on the processing

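No paired analysis was possible because each sex had 1 library. Limits come first from depth: 1 library per sex, gates of 20 to 171 cells for the MHC class II low and Lyve1-high comparisons, and levels near 1 UMI. Of the member counts past 2-fold, 316 values under the alternatives stayed within 1.5 times the reported count and 30 did not. Of the member ratios, 1157 stayed within their interval, 157 moved and 9 reversed, while 7 ratios and 65 alternatives of others had no UMI in the group divided by and so gave no value; of the CPM levels 825 stayed and 183 moved; of the shares 610 stayed and 110 moved. A mean over cells has no meaning for a share and was not run for shares. Alternatives that left out subset-marked cells or each gene's 5 richest cells, or asked for a lead of 2, were chosen after seeing the data. Leaving out 5 cells takes a larger share of a small gate, so it lowers that gate's level by construction.

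A mitochondrial ceiling of 1.2%, whose scale in the study's methods could not be settled, since the study kept far more cells, left 4 female and 1 male Lyve1-high cells, 54 and 81 other AGMs and 43 and 63 lymphocytes. With so few cells the count was 0 for other AGMs over lymphocytes and over monocytes (higher), for Lyve1-high over other AGMs (higher and lower) and for Retnla-high over other AGMs (lower), in both libraries, and for male MHC class II low over high (higher). The ratio of Lyve1-high over other AGMs was then 0 for Sparc in the female library, 0 for P2ry12, Gpr34 and Fcrls in the male library and 3.46 for male Olfml3. It was 0 for male Gpr34 in Lyve1-high cells over lymphocytes, and 0.478 for female Sparc in other AGMs over dendritic cells.

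Female Lyve1-high over other AGMs gave 1 higher member without the 5 richest cells, and 0 lower with a 5% ceiling or 2 lower with clusters, a mean over cells, a fold of 1.5 (19.9% of all genes) or without the 5 richest cells. Female Retnla-high over other AGMs gave 2 higher at a fold of 1.5 (20.1% of all genes). Female MHC class II low over high gave 1 higher at a fold of 1.5 (6.13% of all genes) or with the boundary from T and NK cells, and 1 lower with clusters. In the male library the same comparison gave 1 higher with a 5% ceiling, 5 with a mean over cells, and 0 with quartiles, without cells that held an endothelial, stromal or platelet UMI, without subset-marked cells or without the 5 richest cells. In these settings the male Fcrls ratio was 15.8, 7.31, 10.48 and 2.45, the last far under the 10.1 reported, and it left the count because it had under 50 UMIs in each group. The comparison gave 1 lower with clusters and 2 lower without the 5 richest cells. Its P2ry12 ratio was 0.906 without subset-marked cells. Without the 5 richest cells that ratio was 0, an outcome fixed beforehand, since only 4 low cells held a P2ry12 UMI. Female over male MHC class II low cells gave 1 higher without the 5 richest cells. The cause was not tested.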
